A study of Mus musculus with 15 samples.

Results

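The collagen genes encode the chains of the triple-helical proteins that are the main building material of the extracellular matrix. They were taken as every protein-coding gene of the GRCm39 annotation whose symbol is Col, a number, a and a number, which gave 44 of 21770 protein-coding genes. H3K4me3, the trimethyl mark on lysine 4 of histone H3 and a hallmark of promoters that are active or poised, was profiled with ChIP–seq in mouse mBA cells, brown preadipocytes isolated from brown adipose tissue and differentiated in culture. Wild-type cells were left untreated (WT) or were given 500 µM octyl d-2HG for 72 h (WT + 2HG, or the list with 2HG), a cell-permeable form of the metabolite d-2-hydroxyglutarate dissolved in DMSO. CLPP-KO cells, which lack the mitochondrial matrix protease CLPP, were untreated but grew with added uridine, which the wild-type cells are not stated to have received. All cells grew in high-glucose DMEM without pyruvate. Each condition had 4 ChIP samples and 1 input sample, and the authors called peaks on the 4 samples together, so that there was 1 list per condition. The lists held 12342 peaks in WT, 14059 with 2HG and 15118 in CLPP-KO. They gave no spread between replicates, and no test between conditions was possible. The study states 1 general sequencing depth, and the lists hold no read counts from which the depth of a sample could be read.

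The sample labels call the cells primary, whereas the study's methods describe cells immortalized with the SV40 large T antigen. The lines were derived from pooled control or knockout animals of both sexes, and replicates were independent cultures. Genotype and uridine cannot be told apart. A gene counted as marked when a peak overlapped the 2000 bp either side of any of its transcript starts. The areas under the curve that the authors gave to peaks are not scaled between lists, and each was therefore expressed as a percentile, the percentage of peaks of the same list with an area at or below it. The Clpp promoter had a peak in every list, at percentiles of 39.9 in WT, 45.2 with 2HG and 43.4 in CLPP-KO, which does not check the deletion because a promoter mark can remain where the coding sequence is disrupted. Among 7 adipocyte markers, 2 had a promoter peak in WT and 4 in each of the other lists. Cebpa, an adipogenic transcription factor, was at percentile 94.9 in WT, 94.0 with 2HG and 98.8 in CLPP-KO. Pparg, the master regulator of adipogenesis, was at percentile 17 in WT, 70.4 with 2HG and 37.3 in CLPP-KO, a wider range than that of any collagen gene marked in all lists. The lipid droplet gene Plin1 was gained (marked there but not in WT) with 2HG and in CLPP-KO, at percentiles 21.0 and 33.8, as was the lipase gene Lpl, at 32.8 and 47.2. No list had a promoter peak at Fabp4, Adipoq or Cd36, nor at the brown-fat genes Ucp1 and Ppargc1a. Prdm16, a determinant of brown fat identity, was at percentile 93.5 in WT, 99.7 with 2HG and 96.1 in CLPP-KO. Of the other brown-fat genes, Cidea was gained in both lists, at 21.3 and 33.6, and Ebf2 in CLPP-KO only, at 22.2. The part of these marker changes in the collagen results was not tested. Of 7 markers of fibroblasts and preadipocytes, 6 were marked in WT and WT + 2HG and 7 in CLPP-KO, where Thy1 joined them at percentile 22.2. Twist1 was the highest of them in WT, at 98.1. The 3 leukocyte markers were marked in no list, and of 4 endothelial markers only Kdr was, at percentiles 46.8, 45.6 and 61.6. The 3 skeletal muscle markers were unmarked but for Myod1, at percentile 10.7 in CLPP-KO. Of 3 epithelial markers, Cdh1 was marked in all lists, at percentile 13.8 in WT, 27.5 with 2HG and 49.9 in CLPP-KO, and Epcam was gained with 2HG and in CLPP-KO, at 27.7 and 51.0. A share of other cells in the cultures as a source of collagen peaks was not tested.

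Collagen chains are hydroxylated and glycosylated in the endoplasmic reticulum, assemble as trimers, and after secretion form fibrils, networks or filaments that are cross-linked outside the cell. Fibrillar collagens bear tension, type IV forms the sheet of basement membranes, which surround every adipocyte, and type VI forms beaded filaments that are abundant in fat. The remaining classes decorate fibrils, anchor epithelia, form other networks, lie in the basement membrane zone or span the plasma membrane. H3K4me3 usually lies just downstream of a transcription start, and most strongly at promoters rich in CpG dinucleotides.

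The collagen promoters differ widely in that sequence feature. The stretches of 150 bases just upstream of the most upstream protein-coding start of 7 genes are shown because they span the range from CpG-dense to CpG-free and 3 of the peak patterns described here. They are written 5′ to 3′ from the GRCm39 reference with CpG dinucleotides in capitals.
Col4a2 (chr8:11362321-11362470, plus strand, peak in all 3 lists): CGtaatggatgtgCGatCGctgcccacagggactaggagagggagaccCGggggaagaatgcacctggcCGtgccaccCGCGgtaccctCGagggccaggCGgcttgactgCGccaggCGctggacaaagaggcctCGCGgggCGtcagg
Col5a1 (chr2:27776247-27776396, plus strand, peak in all 3 lists): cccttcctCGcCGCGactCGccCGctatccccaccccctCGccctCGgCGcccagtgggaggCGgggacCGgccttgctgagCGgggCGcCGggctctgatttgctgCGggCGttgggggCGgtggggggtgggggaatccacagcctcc
Col1a1 (chr11:94826900-94827049, plus strand, peak in all 3 lists): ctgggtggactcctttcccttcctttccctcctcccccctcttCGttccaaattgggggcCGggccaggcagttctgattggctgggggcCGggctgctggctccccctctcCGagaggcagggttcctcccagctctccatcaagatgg
Col16a1 (chr4:129941004-129941153, plus strand, peak in CLPP-KO and WT + 2HG): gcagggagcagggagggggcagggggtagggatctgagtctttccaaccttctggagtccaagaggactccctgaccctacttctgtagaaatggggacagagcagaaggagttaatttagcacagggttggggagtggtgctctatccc
Col15a1 (chr4:47207432-47207581, plus strand, peak in CLPP-KO and WT + 2HG): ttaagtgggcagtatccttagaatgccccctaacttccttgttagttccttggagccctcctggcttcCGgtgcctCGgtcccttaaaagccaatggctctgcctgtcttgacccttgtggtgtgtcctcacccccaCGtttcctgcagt
Col3a1 (chr1:45350548-45350697, plus strand, peak in no list): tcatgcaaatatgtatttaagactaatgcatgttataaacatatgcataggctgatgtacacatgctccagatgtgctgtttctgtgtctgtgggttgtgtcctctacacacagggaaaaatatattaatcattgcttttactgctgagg
Col4a5 (chrX:140258204-140258353, plus strand, peak in no list): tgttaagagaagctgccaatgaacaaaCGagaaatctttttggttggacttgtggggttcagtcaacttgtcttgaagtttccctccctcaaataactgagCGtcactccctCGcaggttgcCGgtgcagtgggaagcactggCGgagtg
The Col4a2 stretch, which lies within an intron of the oppositely directed Col4a1, holds 14 CpG, and the Col5a1 stretch holds 16. Col1a1 has 4 and Col15a1 has 3. Col16a1 and Col3a1 have none, and Col4a5 has 5. The peaks named in the labels are those of the gene, and in no list did a peak cover the printed stretch of Col1a1 or Col15a1.

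In WT, 15 of the 44 collagen genes were marked (34.1%), against 51.3% of all protein-coding genes. In WT + 2HG the count was 23 (52.3%), against 56.4%, and in CLPP-KO it was 25 (56.8%), against 58.2%. The collagen share was thus below that of all coding genes in WT and, in the lists as deposited, close to it in the others. With each list limited to its 12342 strongest peaks by area, the counts were 15 in WT, 16 with 2HG (36.4%, against 53.6%) and 17 in CLPP-KO (38.6%, against 53.6%), below the coding share in every list. By summit p they were 15, 16 and 16. When only peaks with an area of at least 1000 were kept, the shares were 18.2% in WT, 34.1% with 2HG and 38.6% in CLPP-KO, against 44.2, 51.6 and 53.6% of coding genes. Both comparisons with WT use the same WT list, and their values are given side by side. A gained gene is one with a peak in a list other than WT and none in WT. In CLPP-KO, 11 collagen genes were gained (25%, against 7.25% of all coding genes), and in WT + 2HG 9 were (20.5%, against 5.64%). Because fewer collagen genes were marked in WT, more of them could be gained. Among genes without a WT peak, 11 of 29 collagen genes were gained in CLPP-KO (37.9%, against 14.9%) and 9 of 29 in WT + 2HG (31.0%, against 11.6%).

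Over the lists together, 13 collagen genes were marked in all 3 (29.5%, against 50.6% of coding genes). A further 8 were gained in both CLPP-KO and WT + 2HG (18.2%, against 4.75%), namely Col5a3, Col8a1, Col9a2, Col13a1, Col15a1, Col16a1, Col18a1 and Col25a1. As a share of genes without a WT peak, these were 27.6%, against 9.74%. Col4a3, Col4a4 and Col26a1 were gained in CLPP-KO only (6.82%, against 2.51%), and Col6a3 in WT + 2HG only (2.27%, against 0.891%). Col11a1 was marked in WT and WT + 2HG but not in CLPP-KO, a pattern of 0.165% of coding genes, and Col14a1 in WT and CLPP-KO but not in WT + 2HG, a pattern of 0.289%. Each was thus the 1 collagen gene of 15 with a WT peak that was missing from the other list, where 0.672% of WT-marked coding genes were missing from CLPP-KO and 0.914% from WT + 2HG. No collagen gene was marked in WT alone in the lists as deposited, against 0.179% of coding genes. In lists of equal size by area, Col1a2, Col11a1 and Col14a1 were (0.845% of coding genes), and by summit p Col6a1 was as well (1.05%). The other 17 were marked in no list (38.6%, against 40.6%), so that 27 of 44 were marked in at least 1 list (61.4%, against 59.4%).

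**Figure D1:**
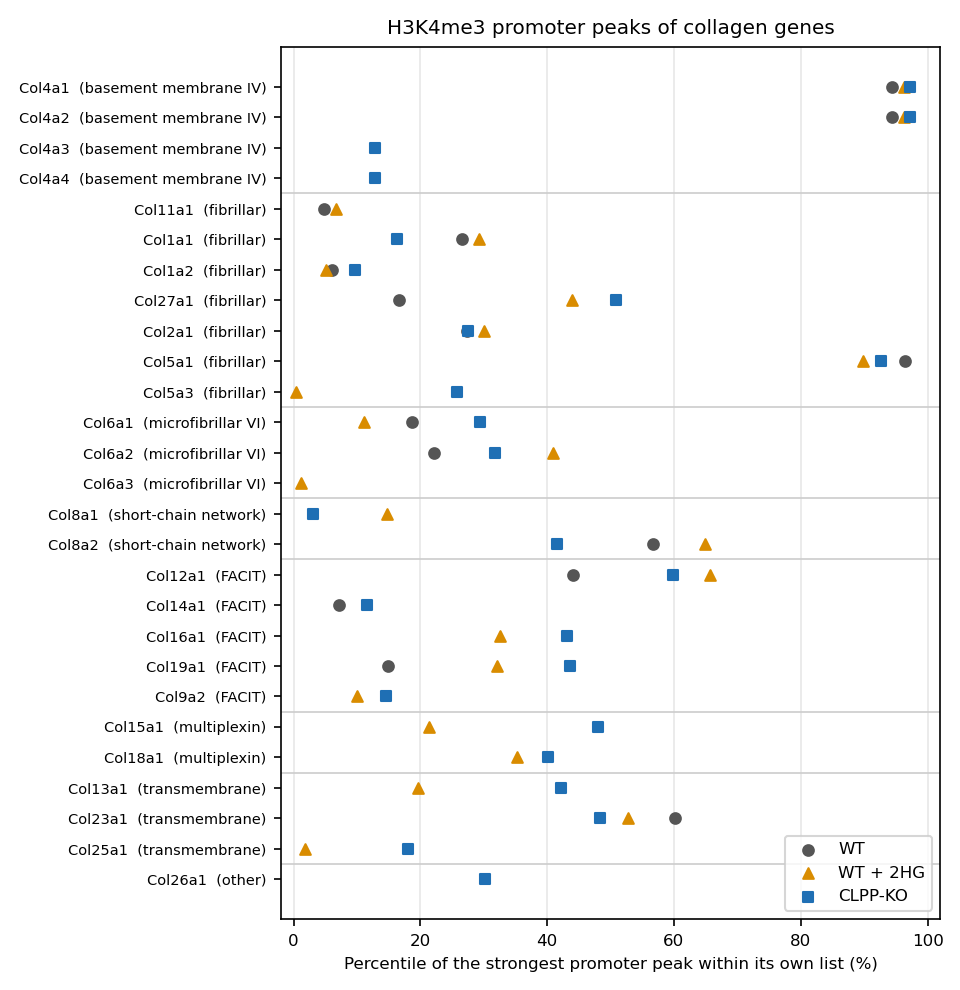
Percentile of the strongest promoter peak of each marked collagen gene within its own list (x axis, percent), by gene and class (y axis), with WT as circles, WT + 2HG as triangles and CLPP-KO as squares and no symbol where a list had no peak. Col4a1, Col4a2 and Col5a1 stand at 89.7 or more in every list, and no gene without a circle exceeds 48.1.

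Where a gene had several promoter peaks, the one with the largest area was taken. This strongest peak of a marked collagen gene had a median percentile of 26.6 in WT, 30.0 with 2HG and 31.8 in CLPP-KO. For all marked coding genes the medians were 59.3, 60.6 and 62.0. In WT 5 of the 15 marked collagen genes lay above the list's median, in WT + 2HG 6 of 23, and in CLPP-KO 5 of 25. These shares were 33.3, 26.1 and 20%, against 60.6, 62.3 and 64.2% of marked coding genes. Collagen peaks were thus mostly in the weaker part of each list. They were also narrower, with a median width of 673 bp in WT, 819 bp with 2HG and 839 bp in CLPP-KO, against 901, 1002 and 990 bp. The range was wide, from 365 to 2673 bp in WT.

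The highest percentiles among the basement membrane collagens were at the Col4a1 and Col4a2 promoter. These genes encode the chains of the type IV collagen found in all basement membranes and are transcribed in opposite directions from overlapping first transcripts, with starts as little as 10 bp apart. A peak covered both starts in each list, so the genes do not give independent values. In WT the peak was chr8:11361965-11363996, 2032 bp wide, at percentile 94.4. In WT + 2HG it was 2340 bp wide at percentile 96.3, and in CLPP-KO 2444 bp at 97.2. It was therefore near the top of every list.

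The other type IV pairs are also arranged head to head but had a weak peak or none. Col4a3 and Col4a4, chains of the type IV network of the kidney glomerulus, have starts 103 bp apart. They were covered by a peak of 693 bp at chr1:82564263-82564955 in CLPP-KO only, at percentile 12.8 and with a summit −log10 p of 4.46. This weak peak accounts for 2 of the 3 collagen genes gained in CLPP-KO alone. Col4a5, which joins that network, and Col4a6 point away from each other from starts 1282 bp apart on the X chromosome, and neither was marked in any list.

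Of the 11 fibrillar collagen genes, 6 were marked in WT, 7 with 2HG and 6 in CLPP-KO (54.5, 63.6 and 54.5%, against 51.3, 56.4 and 58.2% of coding genes). Col5a1, a chain of type V collagen, which starts and limits the growth of type I fibrils, had the highest WT percentile of any collagen gene. Its percentile was 96.4 in WT, 89.7 with 2HG and 92.7 in CLPP-KO. In WT the peak was an unbroken 2673 bp, chr2:27776056-27778728. In WT + 2HG a peak of 1760 bp and in CLPP-KO a peak of 1846 bp covered the start, and a separate weak peak with its summit in an intron stood at percentiles 9.32 and 9.33. The extent covered was similar in all lists but was broken up outside WT. The partner gene Col5a2 was unmarked throughout. Col5a3, the third type V chain, was gained in both lists, but at percentile 0.455 in WT + 2HG, where its area of 205 lay just above the lowest of that list, 200.0. In CLPP-KO it stood at 25.8.

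Type I collagen, the main fibrillar collagen of connective tissue, is made of the products of Col1a1 and Col1a2. Both genes were marked in every list as deposited and both weakly. In lists of equal size Col1a1 was no longer marked in CLPP-KO, and Col1a2 was marked in WT only. The Col1a1 percentile was 26.6 in WT, 29.2 with 2HG and 16.3 in CLPP-KO. It had a pair of peaks in each list, of which the stronger was 673, 899 and 770 bp wide and had its summit in an intron, and the weaker lay further downstream. For Col1a2 the percentile was 6.13 in WT, 5.19 with 2HG and 9.77 in CLPP-KO, with widths of 365, 367 and 334 bp. Col3a1, which encodes the type III collagen of vessel walls and skin, had no peak within 2000 bp of any start, and the nearest peak in WT was 360252 bp away.

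Col2a1, Col11a1 and Col11a2 encode chains of the fibrils of cartilage. Col2a1 was marked in all lists, at percentile 27.3 in WT, at 30.0 with 2HG and at 27.5 in CLPP-KO. The number of its peaks was 1 in WT and 3 in each of the others, whose strongest peak had its summit 2521 bp (WT + 2HG) and 2509 bp (CLPP-KO) downstream of the canonical start. The peak over the Col2a1 start itself was at percentile 27.3 in WT, 22.3 with 2HG and 24.6 in CLPP-KO, so the start peak was lower outside WT. The strongest peak was 2.73 points above WT with 2HG and 0.15 points above it in CLPP-KO. These ranks are from lists of different length, and values in lists of equal size are not given for Col2a1. Col11a1 stood at percentile 4.83 in WT and at 6.72 in WT + 2HG and had no peak in CLPP-KO, and Col11a2 was unmarked. Of the cartilage markers, the transcription factor gene Sox9 was at percentile 95.2 in WT, 95.6 with 2HG and 88.8 in CLPP-KO, with widths of 1277, 3514 and 1316 bp. Acan, which encodes aggrecan, was at percentiles 4.75, 42.9 and 16.9, and Matn1 was unmarked. The part of these markers in the values of the cartilage collagens was not tested. Col27a1, a minor fibrillar collagen of cartilage, showed the largest difference in percentile from WT of all collagen genes in both comparisons when peaks were ranked by area in the lists as deposited. Ranked by summit p, its differences were 23.5 (WT + 2HG) and 28.5 (CLPP-KO), smaller in size than 35.3 for Col12a1 in the first and −44.6 for Col8a2 in the second. In lists of equal size by area its differences were 19.4 (WT + 2HG) and 23.2 (CLPP-KO). The CLPP-KO value was smaller in size than −28.3 for Col8a2 and −23.5 for Col23a1. By area per bp the WT + 2HG difference of Col27a1 was 14.3, below 37.2 for Col6a2. Col27a1 was at percentile 16.7 in WT, at 43.9 with 2HG and at 50.9 in CLPP-KO, with widths of 596, 1443 and 974 bp, and a further upstream peak was present outside WT. Col24a1 was unmarked.

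**Figure D2:**
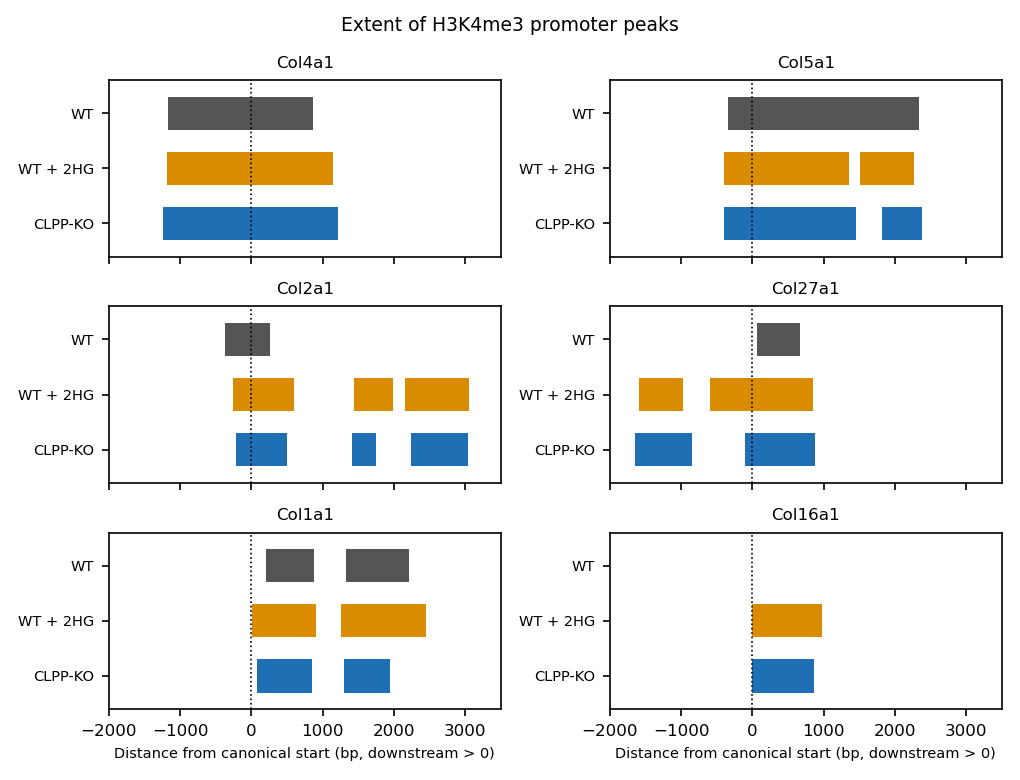
Extent of promoter peaks (bars) of 6 collagen genes in the WT, WT + 2HG and CLPP-KO lists (y axis), as distance in bp from the canonical transcription start with downstream positive (x axis). The Col4a1 peak is unbroken in every list, Col5a1 has 1 peak in WT and 2 elsewhere, Col2a1 has 1 in WT and 3 elsewhere, and Col16a1 has none in WT.

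Type VI collagen is built from the products of Col6a1, Col6a2 and Col6a3, with Col6a4, Col6a5 and Col6a6 encoding chains that can take the place of the last. Col6a1 was marked in all lists, at percentile 18.7 in WT, at 11.1 with 2HG and at 29.3 in CLPP-KO. Col6a2 was at percentiles 22.1, 41.0 and 31.8, respectively. The order of the lists thus differed between these genes of the same protein. Col6a3 had a peak in WT + 2HG only, of 455 bp at percentile 1.26, and the other 3 were unmarked. Among the short-chain collagens, which form the hexagonal network under endothelia, Col8a2 was marked in all lists at percentile 56.7 in WT, at 64.8 with 2HG and at 41.6 in CLPP-KO. A weaker Col8a2 peak lay at another annotated start in every list, with summits 14404 to 14539 bp downstream of the canonical one. Its partner Col8a1 was gained in both, at percentile 14.8 with 2HG and at 3.04 in CLPP-KO, and was the exception among the 8 such genes in standing higher in WT + 2HG. Col10a1, a collagen of hypertrophic cartilage, was unmarked.

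The fibril-associated collagens bind to the surface of fibrils without forming them. Of their 9 genes, 3 were marked in WT, 4 with 2HG and 5 in CLPP-KO. These shares were 33.3, 44.4 and 55.6%, against 51.3, 56.4 and 58.2% of coding genes. Col12a1, which coats type I fibrils, was at percentile 44.1 in WT, at 65.6 with 2HG and at 59.8 in CLPP-KO. Col19a1 was at percentiles 14.9, 32.1 and 43.6, with widths of 517, 572 and 1171 bp. These values were higher outside WT for both genes. Col14a1, a relative of Col12a1, was weak where it was marked, at percentile 7.19 in WT and at 11.7 in CLPP-KO. Col16a1 was gained in both lists, at percentile 32.5 with 2HG and at 43.1 in CLPP-KO, with a peak at chr4:129941151-129942017 in CLPP-KO whose summit lay 258 bp downstream of the start. The upstream stretch of Col16a1 printed above has no CpG, and the peaks begin at its end. Col9a2, which joins type II fibrils, was gained at percentiles 9.94 and 14.5. Col9a1, Col9a3, Col20a1 and Col22a1 were unmarked.

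Col15a1 and Col18a1 encode the multiplexins of the basement membrane zone, the latter the precursor of endostatin, and both were gained in both lists. Col15a1 stood at percentile 21.3 with 2HG and at 48.1 in CLPP-KO, the highest value of any gained collagen gene. Its CLPP-KO peak, chr4:47207995-47208833, had its summit 867 bp downstream of the start and did not reach the upstream stretch printed above. Col18a1 was at percentile 35.3 with 2HG and at 40.2 in CLPP-KO. Its peaks lay at the most upstream start, chr10:77001252-77002437 in CLPP-KO, with summits in an intron, at −52198 bp (WT + 2HG) and −52222 bp (CLPP-KO) from the canonical start, where no list had a peak.

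Of the 4 transmembrane collagens, 1 was marked in WT and 3 in each of the other lists. These shares were 25, 75 and 75%, against 51.3, 56.4 and 58.2% of coding genes. Col23a1 was at percentile 60.2 in WT, at 52.7 with 2HG and at 48.4 in CLPP-KO. Col13a1, a collagen of the neuromuscular junction, was gained at percentiles 19.6 and 42.2. Col25a1, which motor axons need to reach muscle, was gained at percentiles 1.86 and 18.1. Col17a1, a hemidesmosome component, was unmarked, as was Col7a1, the anchoring fibril collagen of skin. Col26a1 was gained in CLPP-KO at percentile 30.2, and Col28a1 was unmarked.

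The 12 gained genes came from every class of collagen but the anchoring fibril, with at most 2 from a class. The 8 genes gained in both had a median percentile of 17.2 with 2HG and 33.0 in CLPP-KO, and none lay above its list's median. All 1033 coding genes gained in both had medians of 17.3 and 24.4, and 1.06 and 6.10% of them lay above the list's median. The percentile was higher in CLPP-KO than in WT + 2HG for 7 of the 8 collagen genes and for 70.9% of the coding genes, with a median difference of 13.4 and 6.07 percentile points, respectively. In lists of equal size by area it was higher for the 4 collagen genes still marked in both and for 59.0% of 575 coding genes, with median differences of 14 and 2.28.

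Among collagen genes marked in WT and in the other list, differences in percentile were of both signs. The strongest peak was compared also where, as at Col2a1, it lay elsewhere than in WT. In WT + 2HG minus WT, 10 of 14 were positive, from −7.56 (Col6a1) to 27.2 (Col27a1), with a median of 2.26. Over all coding genes marked in both, 64.4% were positive and the median was 3.69. In CLPP-KO minus WT, 10 of 14 were again positive, from −15.1 (Col8a2) to 34.2 (Col27a1), with a median of 3.20, against 69.8% and 5.27. Which median was the higher depended on the ranking. By summit p the collagen medians were 7.28 (WT + 2HG) and 9.24 (CLPP-KO), against 5.43 and 7.53 for coding genes. By area per bp they were 6.98 and 5.79, against 5.03 and 6.91. In lists of equal size they were 1.39 and −5.20 over 11 genes, against −0.04 and −0.53. Among the other genes named for the size of their difference, the differences from WT were 21.5 (WT + 2HG) and 15.6 (CLPP-KO) for Col12a1, 18.9 and 9.71 for Col6a2 (10.6 and −5.62 in lists of equal size), and 17.3 and 28.7 for Col19a1 (7.82 and 16.0 in lists of equal size). In CLPP-KO the Col12a1 value was 6.6 in lists of equal size. For Col8a2 the signs differed, at 8.10 and −15.1, but both were negative by summit p, at −9.55 and −44.6. By area per bp they were 25.8 and −11.7, and in lists of equal size 3.21 and −28.3. For Col23a1 both were negative, at −7.47 and −11.8, and by area per bp at −26.5 and −30.6. In lists of equal size the Col23a1 values were −14.0 and −23.5.

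In the lists limited to the 12342 strongest peaks by area, 6 of 44 collagen genes were gained in CLPP-KO (13.6%, against 4.09% of coding genes). In WT + 2HG 5 of 44 were gained, and no share over coding genes was computed for that count. Gained in both were 4 of 44, against 2.64% of coding genes. The 4 were Col13a1, Col15a1, Col16a1 and Col18a1. The same 4 remained gained in both when only peaks with an area of at least 1000, or with a summit p of at most 1e-05, were kept, where 6.65 and 5.89% of coding genes were gained in both. Under the area limit Col6a2, Col19a1 and Col27a1 joined them because their WT peak was below it.

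**Figure D3:**
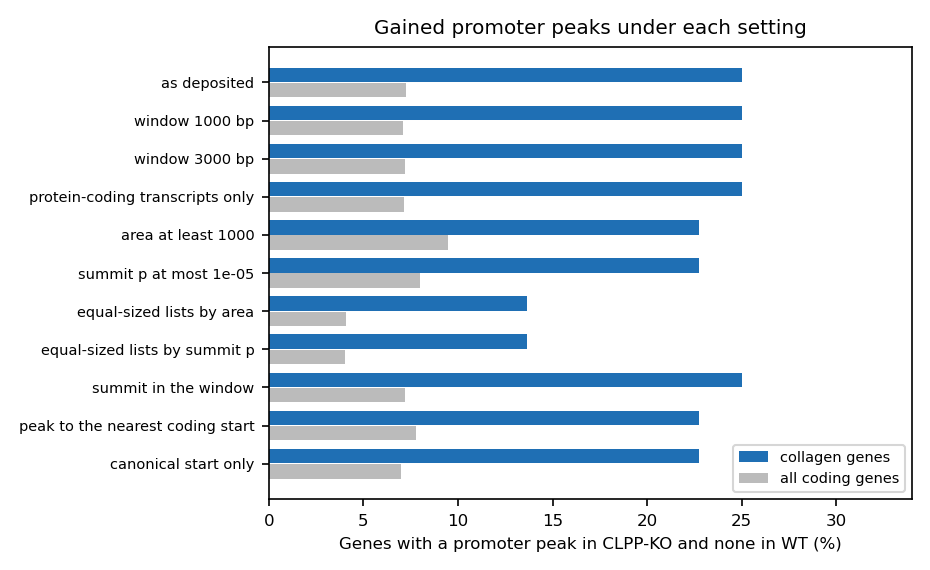
Share of genes marked in CLPP-KO but not in WT (x axis, percent) under each setting (y axis), for the 44 collagen genes and for all protein-coding genes. The collagen share runs from 13.6% in the equal-sized lists to 25%, with the coding-gene share between 4.04 and 9.45%.

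The marked collagen promoters were compared for sequence features that had no part in choosing the genes. The observed to expected ratio of CpG within 500 bp of the most upstream protein-coding start had a median of 0.569 over the 15 collagen genes marked in WT, 0.466 over the 12 gained and 0.300 over the 17 marked in no list. The medians over all coding genes of the same kinds were 0.730, 0.552 and 0.197. With a ratio of at least 0.6 taken as CpG-rich, 10 collagen genes were CpG-rich (22.7%, against 43.2% of coding genes). All 10 were marked in at least 1 list and 7 of them in every list. Of CpG-rich coding genes, 94.8% were marked in at least 1 list. The 10 were Col4a1, Col4a2, Col5a1, Col8a2, Col12a1, Col13a1, Col23a1, Col25a1, Col26a1 and Col27a1. Of the 34 CpG-poor collagen genes 17 were marked in at least 1 list (50.0%, against 32.5%) and 9 were gained (26.5%, against 8.45%). Of the 10 CpG-rich, 3 were gained (30%, against 7.74%), so the gained share exceeded that of coding genes in both groups. In WT, 8 of the 34 CpG-poor genes were marked (23.53%, against 24.01%) and 7 of the 10 CpG-rich (70%, against 87.02%). Col6a1 and Col1a1, marked in every list, had ratios of only 0.216 and 0.300.

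**Figure D4:**
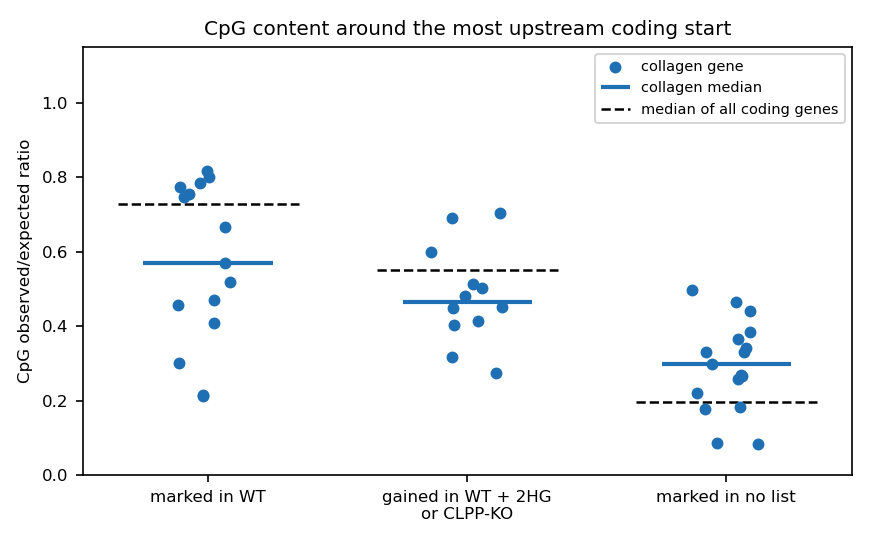
Ratio of observed to expected CpG within 500 bp of the most upstream protein-coding start (y axis) for collagen genes marked in WT, gained in WT + 2HG or CLPP-KO, or marked in no list (x axis), each point a gene. The collagen medians (solid lines) are 0.569, 0.466 and 0.300 and those of all coding genes (dashed lines) 0.730, 0.552 and 0.197.

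Short promoter motifs were searched on both strands in the 250 bases upstream of the same start, and no motif contains another. The GC box GGGCGG was found in 20 of 44 collagen genes (45.5%, against 31.6% of coding genes), 14 of the 27 marked genes (51.9%, against 45.2% of marked coding genes) and 6 of the 17 unmarked (35.3%, against 11.8%). The CCAAT box was found in 17 (38.6%, against 36.5%), 13 of the marked (48.1%, against 35.3%) and 4 of the unmarked (23.5%, against 38.3%). The TATA box TATAAA was found in 7 (15.9%, against 12.3%), 3 of the marked (11.1%, against 7.45%) and 4 of the unmarked (23.5%, against 19.4%). A match describes these letters only.

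Most summits lay downstream of the start. The summit was downstream of the canonical start for 12 of 15 collagen genes in WT, 19 of 23 with 2HG and 19 of 25 in CLPP-KO, or 80.0, 82.6 and 76.0%, against 84.5, 84.8 and 85.3% of coding genes. More than 1 promoter peak was found for 2 collagen genes in WT (13.3%), 7 with 2HG (30.4%) and 6 in CLPP-KO (24%), against 17.4, 16.3 and 16.9%. No peak fell within a collagen gene body outside the promoter windows. No collagen peak overlapped the promoter window of a protein-coding gene that is not a collagen gene. Noncoding-gene windows were overlapped at 5 of 15 marked collagen genes in WT, 10 of 23 with 2HG and 10 of 25 in CLPP-KO. The share over all marked coding genes was not computed. The strand of the signal cannot be read from ChIP–seq. For the 17 unmarked genes the nearest peak in any list was 5899 bp from a start, at Col11a2.

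Collagen chains depend on a set of enzymes and chaperones, and the genes of these were marked in larger shares. Of 31 collagen-modifying and processing genes, 30 were marked in WT and 31 in the other lists. These shares were 96.8, 100 and 100%, against 51.3, 56.4 and 58.2% of coding genes. Their median percentiles were 70.4 in WT, 63.6 with 2HG and 67.5 in CLPP-KO, against 59.3, 60.6 and 62.0 for marked coding genes. Lox, the lysyl oxidase that starts cross-linking, was at percentile 97.6 in WT, at 97.2 with 2HG and at 97.4 in CLPP-KO. Its relative Loxl1 was at percentiles 96.1, 98.3 and 98.8. The lysyl hydroxylase gene Plod3 was at percentiles 89.0, 82.9 and 91.0. Serpinh1, the collagen chaperone HSP47, was at percentiles 81.0, 60.7 and 46.3. Colgalt2, a collagen galactosyltransferase, was the exception in being gained in both, at percentiles 27.9 and 44.3. P3h4 and Fkbp10 share a promoter peak and a value. In these genes 21 of 31 starts were CpG-rich, against 10 of 44 in the collagen genes and 43.2% of coding genes.

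**Figure D5:**
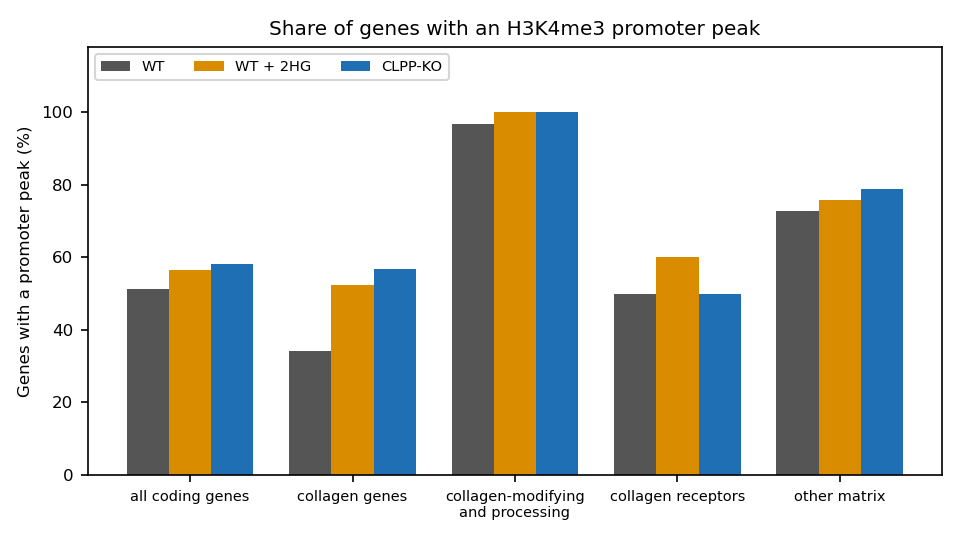
Share of genes with a promoter peak (y axis, percent) in the WT, WT + 2HG and CLPP-KO lists for all 21770 protein-coding genes, the 44 collagen genes, 31 collagen-modifying and processing genes, 10 collagen receptor genes and 33 other matrix genes (x axis). The collagen bars run from 34.1 to 56.8% and the modifying genes from 30 of 31 to all.

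Of 7 collagen-cleaving protease genes, Mmp14, which encodes a membrane-bound collagenase, and Mmp2, a gelatinase that it activates, were marked in all lists, at WT percentiles 97.3 and 32.9, and the other 5 in none. The marked share was 28.6% in each list, against 51.3, 56.4 and 58.2% of coding genes. Of 10 collagen receptor genes, 5 were marked in WT, 6 with 2HG and 5 in CLPP-KO, shares of 50, 60 and 50% against 51.3, 56.4 and 58.2% of coding genes. The shared integrin subunit gene Itgb1 was at WT percentile 89.2 and the collagen-binding Itga11 at 21.1. Ddr2, a receptor tyrosine kinase for fibrillar collagen, was gained in WT + 2HG only, at percentile 2.01.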

How the data were processed

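ChIP–seq was done in 12 samples, 4 per condition, with 3 inputs. Per the submitters' processing notes and the methods, the authors trimmed reads with fastp 0.23.4, mapped them to GRCm39 with BWA 0.7.17 and called peaks with Genrich 0.6.1 on the 4 replicates of a condition together. In each deposited list the score is limited to 1000 (reached by 88.7, 92.1 and 91.8% of peaks in WT, WT + 2HG and CLPP-KO), the signal is the area under the curve, the summit p-value is given as −log10, and the q field is −1 throughout, so no stricter q could be set. The lists were deposited without read counts. Their contig names were matched to the reference, with 0 peaks unmatched and 0 beyond a chromosome's end.

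Genes and starts came from GENCODE M39 (78289 genes). Promoter peaks overlapped a window by at least 1 bp. CpG and motifs were read from the GRCm39 genome at the most upstream start of a protein-coding transcript, or the canonical start for 176 genes without one. The members, the other gene lists and the alternatives were chosen with earlier results of these data known. All fibrillar, type IV and type VI genes were named, as were all collagen genes marked in 1 or 2 lists, the 5 with the highest WT percentile and the 5 with the largest difference from WT in each list. Of the other lists, members marked in 1 or 2 lists and the one with the highest WT percentile were named. Other members named were chosen for their role after their values were seen. Alternatives changed the window, the starts, the thresholds, the ranking, the list sizes and the assignment of peaks. Those using the canonical start were chosen after seeing the data. The code was tested on simulated data, where 2000 of 2000 genes got their planted pattern, and gene and peak links of the 3 lists were identical to those bedtools 2.31.1 gave. The work used pysam 0.24.0, numpy 2.4.6, pandas 2.3.3 and matplotlib 3.10.9 in Python 3.11.15. Neither read density nor the transcriptomes are analysed here.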

Additional observations from a re-analysis of the deposited data

How the results depend on the processing

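No paired analysis was possible because each condition has 1 peak list made from its 4 replicates together, and for the same reason no replicate could be left out. No difference between lists therefore has a replicate check. Windows of 1000 or 3000 bp, protein-coding transcripts only, summits within the window, assignment to the nearest start and, chosen after seeing the data, canonical starts only left every count of collagen genes within 1.5 times its reported value. Restricting peaks to an area of at least 1000 left 8 collagen genes marked in WT and 15 in WT + 2HG, with 7 marked everywhere, 0 only with 2HG, 0 shared by WT and CLPP-KO alone, and 26 nowhere. A summit p of at most 1e-05 left 8 in WT, 8 marked everywhere, 2 only with 2HG, and 0 in each pattern of WT with 1 other list. Under both limits the collagen share was below that of coding genes in every list. By summit p it was 18.2% against 46.7% in WT, 36.4% against 53.5% in WT + 2HG and 40.9% against 54.5% in CLPP-KO. For the pattern counts listed here under these limits no share of coding genes is given, so they have no background. Lists limited to 12342 peaks by area gave 4 gained in both and 3 in WT only, and by summit p 16 marked in CLPP-KO, 4 gained in both, 0 shared by WT and CLPP-KO alone, and 4 in WT only. In the equal-sized lists by area the CLPP-KO median percentile was 30.3, and the median difference of CLPP-KO from WT turned to −5.20 over 11 genes, of which 5 were positive, against −0.53 for coding genes. The difference of Col6a2 turned to −5.62. Both were computed with fewer peaks of the longer list, and the median covers 11 genes against 14 in the lists as deposited. Ranked by summit p, the median percentiles were 24.5 (WT + 2HG) and 28.0 (CLPP-KO), the median differences from WT were 7.28 and 9.24, and that of Col8a2 in WT + 2HG turned to −9.55. Ranked by area per bp, the medians were 25.7 in WT, 24.7 with 2HG and 29.4 in CLPP-KO and the differences 6.98 and 5.79. The cause of these shifts, among them those in the equal-sized lists, was not tested. Counting noncoding genes raised the collagen genes with a shared promoter peak from 4 to 14, and no share over coding genes is given for either count. Widths and CpG medians kept within 1.5 times their reported values under the alternatives run.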

Other observations

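Other matrix genes stood between the collagen genes and their modifying enzymes. Of 33 listed, 24 were marked in WT, 25 with 2HG and 26 in CLPP-KO. These shares were 72.7, 75.8 and 78.8%, against 51.3, 56.4 and 58.2% of coding genes. The median percentiles were 38.7, 45.5 and 44.3, against 59.3, 60.6 and 62.0 for marked coding genes. The proteoglycan genes Dcn and Lum, whose products bind type I fibrils, were marked in no list, as were Fmod, Postn, Tnc, Tnxb and Thbs2. Among basement membrane partners of type IV collagen, Lamc1, the common laminin gamma chain, was at percentile 99.1 in WT, 88.7 with 2HG and 96.3 in CLPP-KO. Hspg2, which encodes perlecan, was at 84.9, 67.1 and 76.1, and the nidogen gene Nid1 at 31.0, 54.0 and 47.4. Lamb3, an epithelial laminin chain, was gained in both CLPP-KO and WT + 2HG, at 27.5 and 17.9, and Lamc3 in CLPP-KO only, at 17.5. Fbn2, a microfibril gene, was at 97.2 in WT and Fbn1 at 90.3.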
